A study of Homo sapiens with 14 samples.

Results

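The 9 genes described here encode the machinery by which cells display internal peptides on MHC class I molecules: the class I chains HLA-B, HLA-C and B2M, the peptide transporter and loading genes TAP1, TAP2 and TAPBP, the immunoproteasome subunits PSMB8 and PSMB9, and the transactivator NLRC5. They were taken by symbol from the 19923 rows of the deposited count tables, and all 9 were found. The tables hold 14 RNA-seq libraries from SK-N-BE2, a MYCN-amplified line derived from neuroblastoma, a tumour of the sympathetic nervous system, in 7 groups of 2 replicates. Libraries were strand-specific and primed with oligo-dT on TRIzol-extracted RNA. In batch 1, wild-type cells received H2O or CoCl2, at either 10 µM or 50 µM. This cobalt salt is commonly used to mimic low oxygen, and the labels give no exposure time. In batch 2, cells without treatment were wild type (WT) or labelled TET2KO 1, 2 or 3. TET2 is an enzyme that oxidises 5-methylcytosine in DNA, and no label states by what means it was knocked out or whether each group is 1 clone. Nor do the labels say that replicates came from separate cultures, so p-values measure the spread between these libraries, which may be technical.

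Class I presentation works as a line. Proteasomes cut cytosolic proteins into peptides, and subunits such as PSMB8 and PSMB9, which are induced by interferon, change which peptides are cut. The TAP1-TAP2 dimer pumps peptides into the endoplasmic reticulum, where tapasin (TAPBP) helps load them onto a heavy chain such as HLA-B or HLA-C paired with beta-2-microglobulin (B2M). NLRC5 is brought to class I promoters by the RFX, CREB/ATF and NF-Y factors bound at the conserved X and Y boxes, and interferon regulatory factors and NF-kB act upstream of those boxes. Neuroblastoma is known for low class I display.

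The promoters of 5 of the genes are shown, each with a match to both the core bound by interferon regulatory factors and the NF-kB motif. Each is the 250 bases before the RefSeq start in GRCh38.p14, read 5′ to 3′ on the gene's strand, with capitals marking matches to the 4 motifs described after them.
HLA-B: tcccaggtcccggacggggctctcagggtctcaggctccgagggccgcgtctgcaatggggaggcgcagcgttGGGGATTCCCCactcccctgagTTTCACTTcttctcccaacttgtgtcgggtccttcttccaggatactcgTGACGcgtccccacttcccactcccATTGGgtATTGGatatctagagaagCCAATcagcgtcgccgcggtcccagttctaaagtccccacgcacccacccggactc
HLA-C: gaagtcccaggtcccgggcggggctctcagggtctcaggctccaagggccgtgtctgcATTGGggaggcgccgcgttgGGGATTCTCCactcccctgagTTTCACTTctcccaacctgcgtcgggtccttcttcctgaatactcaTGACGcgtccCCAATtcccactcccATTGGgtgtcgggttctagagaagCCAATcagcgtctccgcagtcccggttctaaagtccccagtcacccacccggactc
B2M: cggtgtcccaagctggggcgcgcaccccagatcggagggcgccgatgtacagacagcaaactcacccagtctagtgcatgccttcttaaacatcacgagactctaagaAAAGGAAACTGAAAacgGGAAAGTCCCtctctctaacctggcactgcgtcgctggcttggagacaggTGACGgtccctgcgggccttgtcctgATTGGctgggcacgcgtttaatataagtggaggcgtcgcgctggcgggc
TAP1: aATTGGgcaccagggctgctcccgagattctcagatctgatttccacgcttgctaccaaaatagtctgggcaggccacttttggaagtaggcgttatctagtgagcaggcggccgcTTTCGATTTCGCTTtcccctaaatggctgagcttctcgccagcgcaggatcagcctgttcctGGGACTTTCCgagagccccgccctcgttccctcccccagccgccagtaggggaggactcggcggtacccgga
TAPBP: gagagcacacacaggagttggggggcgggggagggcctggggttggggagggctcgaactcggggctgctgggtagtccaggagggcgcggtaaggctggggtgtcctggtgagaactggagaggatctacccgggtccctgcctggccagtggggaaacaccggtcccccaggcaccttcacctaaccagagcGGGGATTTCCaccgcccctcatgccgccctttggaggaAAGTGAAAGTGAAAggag
HLA-B lies at chr6:31357180-31357429 on the minus strand, HLA-C at chr6:31272093-31272342 (minus), B2M at chr15:44711267-44711516 (plus), TAP1 at chr6:32853705-32853954 (minus) and TAPBP at chr6:33314079-33314328 (minus). RefSeq promoters were matched for 8 of the 9 genes, NLRC5 being the one without an entry.

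Motifs were searched on both strands, and matches may overlap. The core bound by interferon regulatory factors, AANNGAAA, was present in 6 of the 8 promoters, against 20.3% of 35116 promoters of the same length. Its first base lay at -155 in HLA-B and -151 in HLA-C, counted from the start. B2M, TAP1, TAP2 and TAPBP each held 2 overlapping copies of it, and PSMB8 and PSMB9 had no match. The CCAAT motif, the letters found in the Y box, was present in 5 of 8, against 32.0% of all promoters. Its copy nearest the start lay at -56 in both HLA-B and HLA-C and at -49 in B2M. The matches in TAP1 (-249) and PSMB9 (-243) are the same bases of the genome, counted for both because these windows overlap. TAP2, TAPBP and PSMB8 had no match to it. The CREB/ATF core TGACG was present in 6 of 8, against 21.2%, at -106 in HLA-B, -105 in HLA-C and -75 in B2M. TAP1 and TAPBP had no match to this core. The NF-kB motif was present in 5 of 8 (HLA-B, with 2 overlapping matches, HLA-C, B2M, TAP1 and TAPBP), against 9.96%. HLA-B and HLA-C windows shared 89.0% of aligned positions, with 20 mismatches and 8 gap positions. These 8 promoters held 10 to 21 CpG dinucleotides, the site at which DNA methylation and its oxidation occur, and the median of all promoters was 11. A match is a description of the letters and not evidence of binding.

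Library totals ran from 31214128 to 39540111 counts in batch 1 and from 52095024 to 59263320 in batch 2. Whether whole reads or fragments were counted was not settled. Adrenergic neuroblastoma markers summed to 1450 to 1705 CPM (counts relative to the library total) in batch 1 and 1864 to 2129 in batch 2, carried by HAND2, PHOX2A, TH, GATA3 and DBH. Leukocyte markers summed to 5.88 to 20.04 CPM, most of it CD68, and MS4A1 was at 0 in every library. TET2 exon counts in the knockouts overlapped or exceeded those of WT: TET2 stood at 70.8 and 64.8 CPM in WT, 80.4 and 76.6 in TET2KO 1, 87.4 and 91.1 in TET2KO 2, and 68.2 and 75.4 in TET2KO 3. Exon counts over the whole gene do not check the protein, so the groups are named below as labelled. In the bulk libraries used here, fewer cells of a kind and less RNA per cell cannot be told apart.

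The MHC region itself differed between the batches, which bears on every level given here. On chromosome 6 from HLA-F to TAPBP (29722775 to 33314387), 83 genes passed 1 CPM in the H2O or WT group. Their median difference, WT of batch 2 minus H2O of batch 1, was -1.33 on the log2(CPM + 0.05) scale, and 32 of them (38.6%) were at least 4-fold lower in WT. On the rest of chromosome 6 the median was -0.21 and 24 of 538 genes (4.46%) were that much lower. Over all 12497 genes outside the interval the share was 3.08%. Among the class I genes, the H2O mean was 50.5 times the WT mean for TAP2, 13.1 times for HLA-B, 6.77 times for HLA-C, 5.30 times for TAPBP, 2.94 times for PSMB8, 2.84 times for TAP1 and 1.21 times for PSMB9. For the 2 genes outside the interval the ratios were 2.21 for B2M and 1.25 for NLRC5. Genes not known for antigen presentation were lower too, among them the RNA helicase DDX39B (83.6 CPM in H2O, 0.505 in WT) and the tubulin TUBB (2670 and 557 CPM); they were chosen after their values were seen. Batch, counting setting and culture cannot be told apart here, so levels are compared only within a batch, and counts of several class I genes in batch 2 are small.

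**Figure D1:**
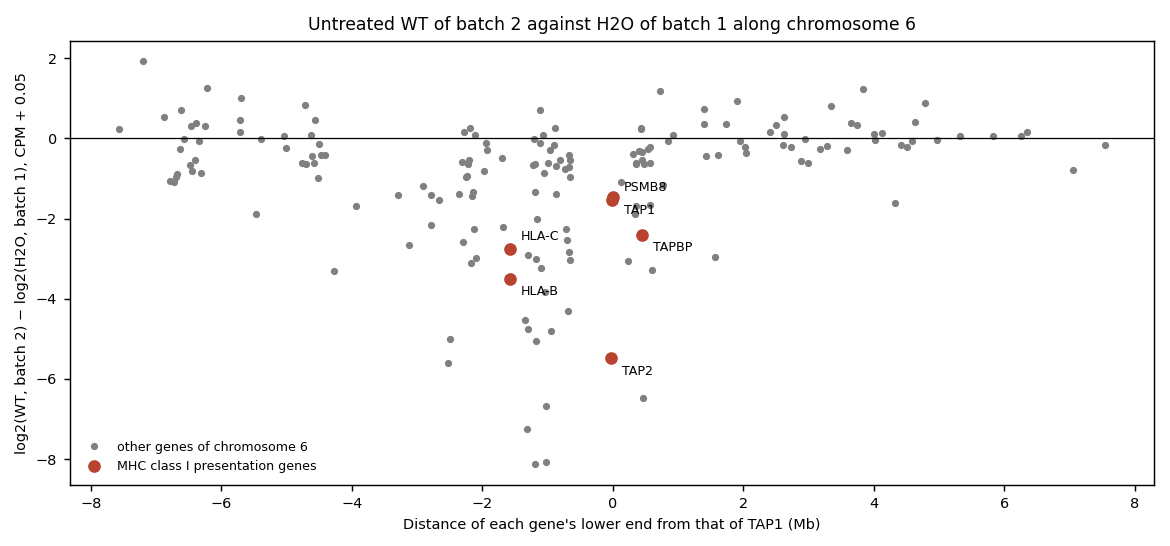
Each point is a gene of chromosome 6 above 1 CPM in either group; the x axis is distance in Mb from TAP1 and the y axis the log2 difference between untreated WT (batch 2) and H2O (batch 1), CPM + 0.05. Class I genes (red) sit among neighbours whose difference varies from gene to gene, with TAP2 at -5.49. From HLA-F to TAPBP 38.6% of genes were at least 4-fold lower in WT, while RPS18 (0.24) and WDR46 (0.25), close to TAPBP, were not lower.

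Per kilobase of exon, levels of the 9 genes differed widely in the H2O libraries. B2M, the light chain, was highest at 75.9 ± 0.948 RPKM (CPM divided by exon length in kilobases; mean ± SD, n = 2), followed by HLA-C at 18.9 ± 0.749 and TAPBP at 9.11 ± 0.419. TAP2 stood at 3.06 ± 0.0398, PSMB8 at 2.54 ± 0.131 and HLA-B at 1.32 ± 0.0406. NLRC5 (0.917 ± 0.00712), TAP1 (0.737 ± 0.0256) and PSMB9 (0.0457 ± 0.0112) were lowest. No neighbours in this order overlapped between replicates. In WT of batch 2 the order was B2M, HLA-C, TAPBP, PSMB8, NLRC5, TAP1, HLA-B, TAP2 and PSMB9, and HLA-B (0.155 and 0.0468 RPKM) overlapped TAP2 (0.0428 and 0.0783), whose lower library was close to the higher one of PSMB9 (0.0327 and 0.0427).

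In cells given 50 µM CoCl2, most class I genes were lower than in H2O while the shared light chain was higher. Of the 9 genes, 8 passed the filter on low counts and 7 were called by edgeR's quasi-likelihood test at an adjusted p under 0.05, 6 lower and 1 higher. Across all 13636 genes tested, 61.4% were called, 31.1% lower and 30.4% higher. The median log2 fold change of the 8 was -0.39, against 0.00 over all genes. At 10 µM, 3 of 8 were called, all lower (HLA-C, PSMB8 and NLRC5), against 22.7% of genes called, 11.1% lower and 11.6% higher, and the median was -0.20. Both contrasts use the same H2O libraries.

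**Figure D2:**
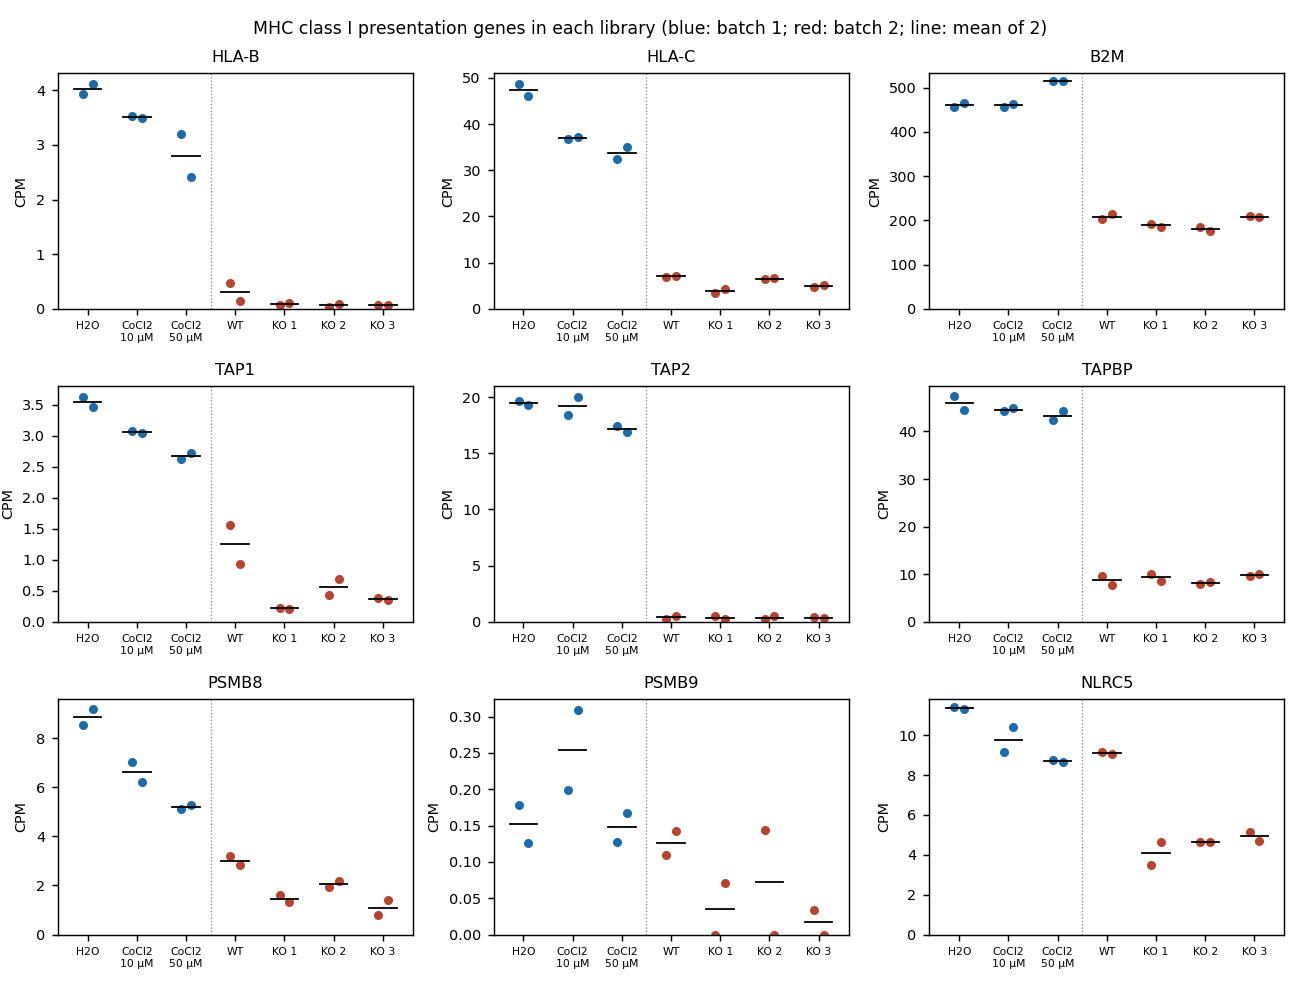
CPM of each gene in each library by group, with the mean of 2 libraries as a line; batch 1 is blue and batch 2 red, and y axes differ between panels. HLA-C and PSMB8 step down from H2O to both CoCl2 doses, B2M is higher at 50 µM, and TAP1, PSMB8 and NLRC5 are lower in the 3 knockouts than in WT.

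HLA-C, the more abundant of the 2 heavy chains, was at 48.7 and 46.1 CPM in H2O, 36.9 and 37.2 at 10 µM, and 32.4 and 35.0 at 50 µM. The 3 groups did not overlap, and the level at 50 µM lay lowest. The fall of HLA-C was 0.36 on the log2 scale at the lower dose (SE 0.04, adjusted p = 1.51e-13) and 0.49 at the higher (SE 0.04, adjusted p = 3.94e-22). The further step from 10 to 50 µM was a log2 fold change of -0.13 (adjusted p = 0.0078), a call that was lost without 50 µM replicate 1 (-0.08, adjusted p = 0.194), with DESeq2 (adjusted p = 0.102) and in a fit of all 14 libraries (adjusted p = 0.104).

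HLA-B was sparser, with 3.94 and 4.11 CPM in H2O, 3.53 and 3.50 at 10 µM, and 3.20 and 2.41 at 50 µM. The groups again did not overlap, although the 50 µM libraries stood well apart from each other. HLA-B fell by 0.53 on the log2 scale at 50 µM (SE 0.14, adjusted p = 0.000512). Without 50 µM replicate 2 the fall was 0.33 and no longer called (adjusted p = 0.104). The HLA-B row spans chr6:31269491-31357188 in the files and overlaps the HLA-C locus, sharing 35 exon bases with it on the same strand, and the 2 genes are close paralogs, so reads may be split between them.

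B2M stood at 457 and 465 CPM in H2O, 457 and 464 at 10 µM, and 516 and 515 at 50 µM. The H2O and 10 µM libraries overlapped and the 50 µM libraries lay above all 4. B2M rose by 0.16 on the log2 scale at 50 µM (SE 0.02, adjusted p = 3.31e-16) and its log2 fold change at 10 µM was 0.00 (SE 0.02). B2M rose while both heavy chains among these genes fell, and each of these calls comes from the same libraries.

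Among transport and loading genes, TAP1 and TAP2 were called lower and TAPBP was not. TAP1 was at 3.63 and 3.45 CPM in H2O, 3.08 and 3.04 at 10 µM, and 2.63 and 2.72 at 50 µM, groups that did not overlap. TAP1 fell by 0.41 at 50 µM (SE 0.15, adjusted p = 0.0112), and TAP2 fell by 0.19 (SE 0.06, adjusted p = 0.00495). TAP2 was at 19.7 and 19.3 CPM in H2O, 18.4 and 19.99 at 10 µM, and 17.4 and 16.9 at 50 µM, so H2O and 10 µM overlapped and 50 µM lay below both. DESeq2 called neither (TAP1 adjusted p = 0.133, TAP2 0.0971), and TAP1 was lost without H2O replicate 1 (0.0598) or 50 µM replicate 1 (0.0614), TAP2 without 50 µM replicate 2 (0.0638). TAP2 also shares 2054 of its 6380 exon bases with AL669918.1 on the same strand, and reads in them cannot be assigned to 1 gene. TAPBP was at 47.5 and 44.6 CPM in H2O and 42.4 and 44.2 at 50 µM; its log2 fold change of -0.09 (SE 0.04) missed the threshold (adjusted p = 0.0515) and passed it without H2O replicate 2 (-0.13, adjusted p = 0.0112), 10 µM replicate 2 (0.0492) or 50 µM replicate 2 (0.0334).

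PSMB8, the inducible counterpart of the constitutive subunit PSMB5, had the largest log2 fold change of the 8. It was at 8.53 and 9.18 CPM in H2O, 7.04 and 6.23 at 10 µM, and 5.12 and 5.26 at 50 µM, with no overlap between groups. PSMB8 fell by 0.42 at 10 µM (SE 0.09, adjusted p = 0.000104, or 0.0515 with DESeq2) and by 0.77 at 50 µM (SE 0.10, adjusted p = 4.30e-12), and the step between the doses was -0.35 (adjusted p = 0.00373, lost without 10 µM replicate 1 at 0.0808, with DESeq2 at 0.0698 and in the fit of all 14 libraries at 0.0711). PSMB5 itself was at 182 ± 2.56 CPM in H2O and 179 ± 2.93 at 50 µM and was not called (log2 fold change -0.02, adjusted p = 0.422). PSMB9 had 4 to 12 counts a library in batch 1 and was not tested. PSMB8 and PSMB9 share 139 exon bases on opposite strands. Counting used no strand option, so reads in those bases cannot be assigned to 1 gene.

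NLRC5, the known transactivator of class I promoters, was at 11.4 and 11.3 CPM in H2O, 9.14 and 10.4 at 10 µM, and 8.77 and 8.68 at 50 µM, with no overlap between groups. NLRC5 fell by 0.21 at 10 µM (SE 0.08, adjusted p = 0.0315) and by 0.38 at 50 µM (SE 0.08, adjusted p = 1.72e-05). The 10 µM call was lost without H2O replicate 1, H2O replicate 2 or 10 µM replicate 1, with DESeq2 and in the fit of all 14 libraries (adjusted p from 0.0811 to 0.388), while the 50 µM call held under all 13 alternatives run (adjusted p at most 0.00831). Direct comparison of the doses called 5 of 8 genes, against 52.8% of all genes, 26.5% lower and 26.2% higher: HLA-B (-0.34, or -0.55 without 50 µM replicate 1), HLA-C, TAP2 (-0.17) and PSMB8 lower, and B2M higher (0.16). HLA-B and TAP2 lost that call without 50 µM replicate 2 (adjusted p = 0.582 and 0.128) or 10 µM replicate 2 (0.107 and 0.297), and HLA-B also without 10 µM replicate 1 (0.102).

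Markers of other cells moved with dose as well. At 50 µM the mesenchymal markers summed to 1960 to 1974 CPM, against 1514 to 1521 in H2O. Most of each sum was VIM, at 1134 to 1530 CPM across batch 1. Of 7 tested, 4 were higher (VIM, DCN, THY1 and FN1) and 2 lower, PDGFRB by 1.40 and COL3A1 by 0.75. Over all genes 61.4% were called, 30.4% higher and 31.1% lower. Leukocyte markers summed to 19.48 to 20.04 CPM against 5.88 to 6.29, with CD68 alone at 18.9 ± 0.163 against 5.20 ± 0.156; PTPRC was at 0 in H2O and had 1 count in all at 50 µM. The endothelial sum was lower, 0.504 to 0.512 CPM at 50 µM against 1.02 to 1.16 in H2O; CDH5 fell by 1.34 (SE 0.39, adjusted p = 0.0018), VWF was not called, and the other 2 of the 4 were not tested. Their part in the class I result was not tested.

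**Figure D3:**
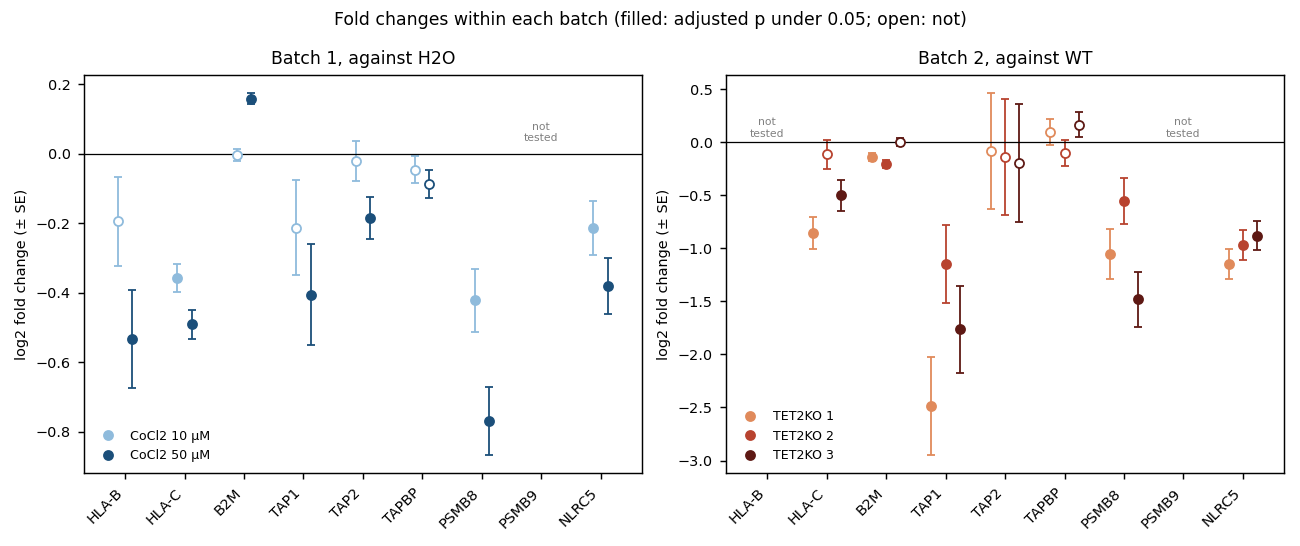
Log2 fold change with its standard error for each gene, against H2O in batch 1 (left) and against WT in batch 2 (right); filled points have an adjusted p under 0.05, and y axes differ between panels. All filled points but B2M at 50 µM lie below 0, and TAP1, PSMB8 and NLRC5 are filled in all 3 knockouts.

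In batch 2, TAP1, PSMB8 and NLRC5 were lower than WT in each of the 3 groups labelled TET2 knockouts, and HLA-C in TET2KO 1 and 3. Of the 9 genes, 7 passed the filter on low counts. TET2KO 1 had 5 of 7 called, all lower, against 17.5% of 14061 genes called, 9.72% lower and 7.79% higher. TET2KO 2 had 4 of 7, all lower, against 26.3% called, 14.3% lower and 12.0% higher. TET2KO 3 had 4 of 7, all lower, against 18.9% called, 9.96% lower and 8.90% higher. The median log2 fold changes of the 7 were -0.86, -0.20 and -0.50, with medians over all genes of 0.00 in each contrast. Being called lower in all 3 applied to 3 of 7 here and to 2.84% of all genes; being called higher in all 3 applied to none here and to 1.43%. All 3 contrasts use the same WT libraries, so they are not independent of each other.

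NLRC5, the transactivator, was at 9.17 and 9.04 CPM in WT, 3.50 and 4.66 in TET2KO 1, 4.65 and 4.65 in TET2KO 2, and 5.16 and 4.68 in TET2KO 3. Every knockout library lay below both WT libraries. NLRC5 fell by 1.15 (SE 0.14, adjusted p = 2.77e-12), 0.97 (SE 0.14, adjusted p = 6.97e-10) and 0.88 (SE 0.14, adjusted p = 2.08e-08) on the log2 scale in TET2KO 1, 2 and 3. These calls held under each alternative run, and a test for a difference among the 3 knockouts was not passed (largest difference 0.27, adjusted p = 0.388). NLRC5 lies on chromosome 16, outside the region that was low in batch 2, with 184 to 507 counts a library.

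TAP1 had the largest fold changes of the 7 genes tested, on small counts. TAP1 was at 1.56 and 0.927 CPM in WT (86 and 52 counts), 0.228 and 0.212 in TET2KO 1 (12 and 12), 0.431 and 0.687 in TET2KO 2 (24 and 38), and 0.376 and 0.351 in TET2KO 3 (22 and 18). All 6 knockout libraries lay below both WT libraries, which differed widely from each other. TAP1 fell by 2.49 (SE 0.46, adjusted p = 5.39e-06) in TET2KO 1, 1.15 (SE 0.37, adjusted p = 0.0108) in TET2KO 2 and 1.76 (SE 0.41, adjusted p = 0.000359) in TET2KO 3. Without WT replicate 1 the falls in TET2KO 2 (0.73, adjusted p = 0.298) and TET2KO 3 (1.34, adjusted p = 0.081) were no longer called, and TET2KO 2 also lost its call without its own replicate 1 (adjusted p = 0.186) and with DESeq2 (0.0947). The other transporter chain, TAP2, had 11 to 28 counts a library throughout batch 2, with WT at 0.273 and 0.499 CPM inside the range of the knockouts (0.197 to 0.513). A change of TAP2 in the knockouts was not detectable at this depth: the log2 fold changes were -0.08, -0.14 and -0.20 with standard errors of 0.55 to 0.56.

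PSMB8 was at 3.20 and 2.82 CPM in WT, 1.60 and 1.31 in TET2KO 1, 1.92 and 2.17 in TET2KO 2, and 0.786 and 1.40 in TET2KO 3, again with every knockout library below WT. PSMB8 fell by 1.05 (SE 0.24, adjusted p = 0.000246), 0.56 (SE 0.22, adjusted p = 0.0437) and 1.48 (SE 0.25, adjusted p = 6.40e-07). The call in TET2KO 2 was near the threshold and was lost under 7 alternatives (adjusted p from 0.05 to 0.244), among them leaving out any 1 of the 4 libraries it compares. The knockouts differed from each other (largest difference 0.93, adjusted p = 0.0148), a call lost without TET2KO 2 replicate 2 (0.132) or TET2KO 3 replicate 1 (difference 0.53, 0.222). PSMB9 had 0 to 8 counts a library and was not tested.

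HLA-C was at 6.98 and 7.03 CPM in WT, 3.33 and 4.38 in TET2KO 1, 6.37 and 6.57 in TET2KO 2, and 4.75 and 5.17 in TET2KO 3. The TET2KO 2 libraries lay just under WT, and those of TET2KO 1 and 3 well under it. HLA-C fell by 0.86 in TET2KO 1 (SE 0.15, adjusted p = 2.04e-06) and by 0.50 in TET2KO 3 (SE 0.14, adjusted p = 0.00548, lost without TET2KO 3 replicate 1 at 0.108), and was at -0.12 in TET2KO 2 (SE 0.13, adjusted p = 0.583). The 3 knockouts differed from each other by up to 0.74 (adjusted p = 0.000133).

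B2M and tapasin had small fold changes. B2M was at 203 and 214 CPM in WT, 192 and 186 in TET2KO 1, 186 and 176 in TET2KO 2, and 210 and 207 in TET2KO 3. TET2KO 3 lay within the WT range and the other two below it. B2M fell by 0.14 in TET2KO 1 (SE 0.04, adjusted p = 0.0031, lost without WT replicate 2 at 0.148 or TET2KO 1 replicate 2 at 0.12) and by 0.20 in TET2KO 2 (SE 0.04, adjusted p = 3.55e-06), and was at 0.00 in TET2KO 3 (SE 0.04). TAPBP was at 9.604 and 7.776 CPM in WT and between 7.86 and 9.96 in the knockouts, overlapping throughout, and was called in none. HLA-B had 26 and 8 counts in the WT libraries and 2 to 6 in each knockout library, below the filter. Fitted without a filter, its average over the knockouts was -1.998 (adjusted p = 0.0256), and no single knockout was called (adjusted p from 0.0625 to 0.177).

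Averaged over the knockouts, 5 of 7 genes were called lower, against 18.9% of genes called, 11.4% lower and 7.54% higher: TAP1 (-1.80, SE 0.32), PSMB8 (-1.03, SE 0.19), NLRC5 (-1.001, SE 0.11), HLA-C (-0.49, SE 0.12) and B2M (-0.11, SE 0.03). B2M lost the call without WT replicate 2 (-0.08, adjusted p = 0.225). The 6 knockout libraries were also fitted as 1 group, so that differences between knockouts counted as error. In that fit 1.82% of all genes were called, and of the 7 class I genes TAP1 (-1.70, adjusted p = 0.0401) and NLRC5 (-0.997, adjusted p = 0.00138) were. PSMB8 (-0.98, adjusted p = 0.11), HLA-C (-0.46, adjusted p = 0.364) and B2M (-0.11, adjusted p = 0.504) were not. Tested for a difference among TET2KO 1, 2 and 3, HLA-C, B2M and PSMB8 were called, 3 of 7, against 37.6% of all genes. Markers of other cells differed between the same groups. Mesenchymal markers summed to 1667 to 1685 CPM in WT and 1178 to 1417 in the knockouts, with 4 of 7 tested lower and 1 higher on average. The endothelial sum was 10.0 to 10.7 CPM in WT and 1.20 to 2.93 in the knockouts, with 3 of 4 lower. Leukocyte sums overlapped (12.0 to 13.3 CPM in WT, 7.83 to 16.9 in the knockouts), and MS4A1 was at 0. The part of these markers in the class I result was not tested.

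The rest of the pathway was read from lists of genes. Each list's counts stand against 61.4% of all genes called at 50 µM (30.4% higher, 31.1% lower) and 18.9% for the knockout average (7.54% higher, 11.4% lower). Among the non-classical class I heavy chains at 50 µM CoCl2, HLA-E and HLA-F were lower and HLA-G was not called. HLA-E, a ligand of natural killer cell receptors, fell by 0.31 (SE 0.13, adjusted p = 0.0299) and HLA-F by 0.76 (SE 0.24, adjusted p = 0.00365). Both rest on few counts and were lost with DESeq2 (adjusted p = 0.227 and 0.0916), in the fit of all 14 libraries and without H2O replicate 2 (0.162 and 0.0642). Leaving out 50 µM replicate 2 took HLA-E to -0.18 (0.361), and leaving out 50 µM replicate 1 took HLA-F to -0.44 (0.176). In batch 2, HLA-E was at 1.22 and 2.02 CPM in WT, 0.551 and 0.724 in TET2KO 1, 1.29 and 1.56 in TET2KO 2, and 0.547 and 0.312 in TET2KO 3. TET2KO 2 lay within the WT range and the other two below it. HLA-E fell by 1.34 in TET2KO 1 (SE 0.34, adjusted p = 0.00132, lost without WT replicate 2 at 0.16) and by 1.89 in TET2KO 3 (SE 0.37, adjusted p = 1.53e-05), and the knockouts differed from each other by up to 1.70 (adjusted p = 0.00015).

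Among class I-like molecules, 8 of 18 passed the filter on low counts, and at 50 µM 3 were higher (ULBP2, MR1 and AZGP1) and 3 lower (PROCR, ULBP3 and MICB). ULBP2, a stress ligand of the NKG2D receptor, rose by 1.71 (SE 0.30, adjusted p = 2.14e-07), and MR1, which presents vitamin B metabolites, by 0.52 (SE 0.17, adjusted p = 0.00433). MR1 lost its call without 50 µM replicate 2 (0.17), as did others of this list, which then had 3 genes called, the same number as with DESeq2. Of 11 peptide trimming and loading helpers, 5 were higher (LNPEP, CALR, PDIA3, BCAP31 and ERAP1) and 2 lower (SPPL2A and UGGT1). The chaperone CALR rose by 0.27 (SE 0.02) and the aminopeptidase LNPEP by 0.44 (SE 0.03), while SPPL2A, an intramembrane protease, fell by 0.35 (SE 0.05). Averaged over the knockouts, ULBP3 was the 1 class I-like gene called (-0.69, lower), and of the helpers BCAP31 was higher and PDIA3 lower (-0.07). BCAP31, an endoplasmic reticulum protein that binds class I chains, was called higher in each knockout (0.22, 0.19 and 0.24), the 1 gene of that list to be called alike in all 3. Leaving out WT replicate 1, either library of TET2KO 2 or TET2KO 3 replicate 1 left 1 helper called on average, and leaving out TET2KO 3 replicate 1 gave 2 class I-like genes.

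Other proteasome genes are given by kind of subunit. None of the 5 partners of the inducible proteasome was higher at 50 µM and 2 were lower, the activator subunit PSME1 (-0.21, SE 0.03) and PSME3 (-0.16, SE 0.02). The inducible subunit PSMB10 was at 1.77 ± 0.429 CPM in H2O and 2.11 ± 0.0944 at 50 µM and was not called (adjusted p = 0.23). Without H2O replicate 1, 4 of the 5 partners were called. The constitutive 20S core was called in both directions, 5 higher and 5 lower of 14, against 30.4% higher and 31.1% lower over all genes, with a median of -0.04 and no member beyond -0.18 (PSMB6, lower) or 0.15 (PSMA6, higher). PSMA6 lost its call with DESeq2 (adjusted p = 0.131) and without H2O replicate 1 (0.0801). Averaged over the knockouts, PSME1 (-0.16) and PSME2 (-0.14) were lower, and the 20S core had 3 higher (PSMA7, PSMB4 and PSMB7) and 2 lower (PSMA3 and PSMA4). Without WT replicate 2, no partner and 1 core gene were called; without WT replicate 1 or TET2KO 2 replicate 1, 2 core genes, and without TET2KO 1 replicate 2 or TET2KO 2 replicate 2, 3.

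Regulators of class I transcription were called in both directions at 50 µM. Of 13, 7 were lower (RFX5, RFXANK, CREB1, ATF1, NFYA, NFYB and NFKB1) and 3 higher (RFXAP, RELA and CIITA) at 50 µM, with a median of -0.13. NFKB1 fell by 0.42 (SE 0.04) and RFXANK, a subunit of the RFX complex, by 0.22 (SE 0.05), and CIITA, the class II counterpart of NLRC5, rose by 0.85 (SE 0.24, adjusted p = 0.00102). CIITA shares 2424 exon bases with DEXI on the opposite strand. Counting used no strand option, so reads in those bases cannot be assigned to 1 gene. Averaged over the knockouts, 2 of 13 were lower, IRF1 (-0.77, SE 0.22, adjusted p = 0.00488) and NFKB1 (-0.18, SE 0.05, adjusted p = 0.00628), and none was higher. IRF1 was at 1.69 and 2.57 CPM in WT and between 0.604 and 1.73 in the knockout libraries, so the 2 ranges overlapped. Leaving out either WT library left the list with 1 call.

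Of 11 interferon receptor and signalling genes tested at 50 µM, 6 were higher and IFNGR2 was lower, so 7 were called, a share near the 61.4% of all genes. JAK2 rose by 0.33 (SE 0.10), IFNGR1 by 0.23 (SE 0.04) and IFNAR1 by 0.22 (SE 0.03); JAK2 lost its call with DESeq2 (adjusted p = 0.079) and without 50 µM replicate 2 (0.109). Interferon-stimulated genes were called in both directions, 5 higher (IFIT3, GBP2, IFIT1, IRF7 and IFI6) and 2 lower (OAS1 and OAS3) of 11 tested. IFIT3 rose by 1.40 (SE 0.34) and the guanylate-binding protein GBP2 by 0.80 (SE 0.14). In the knockouts SOCS3, an inhibitor of cytokine signalling, was the 1 gene of the receptor and signalling list called in all 3, falling by 1.93, 2.32 and 2.94. SOCS3 was at 3.64 and 3.92 CPM in WT and 0.376 to 1.10 in the knockouts, with no overlap. Of 13 interferon-stimulated genes tested, UBE2L6 was higher on average (0.28) and IFIT3 (-0.86) and BST2 (-1.02) lower; without WT replicate 1 the list had 1 call. Genes of these lists named for the knockout average by their calls, and IRF1, PSMB5, PSMB10 and HLA-G, were chosen after their values were seen.

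**Figure D4:**
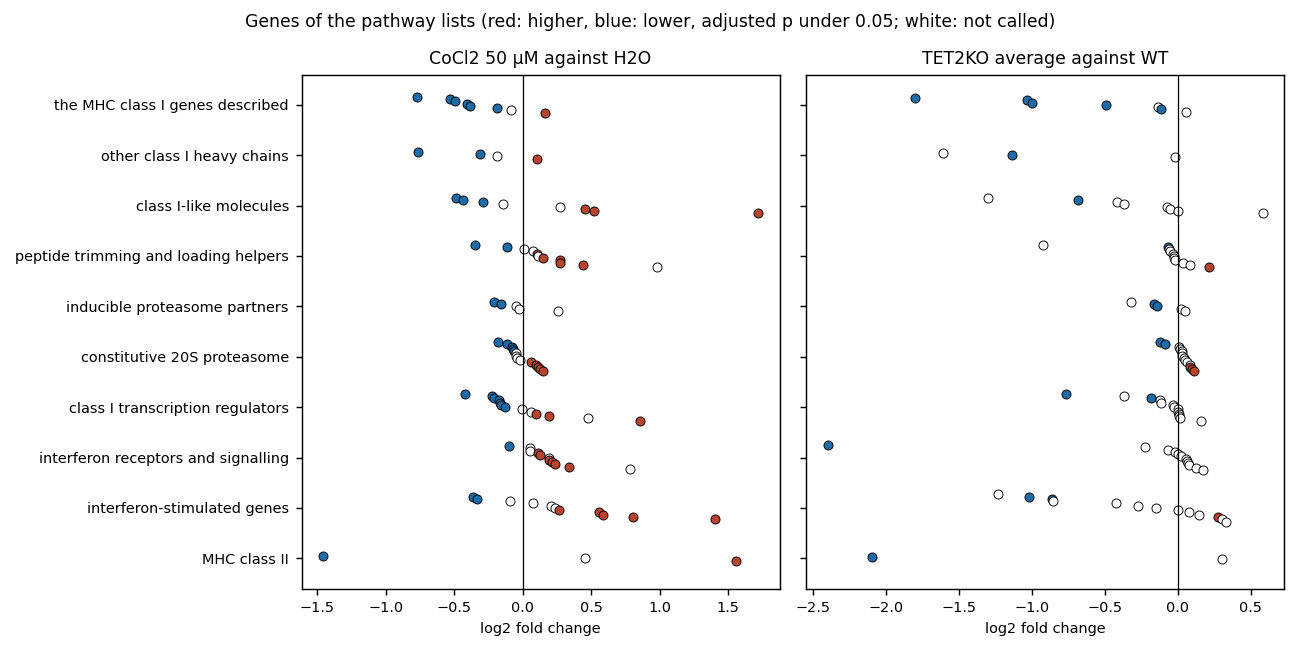
Log2 fold change of every tested gene in each list at 50 µM CoCl2 against H2O (left) and for the average of the knockouts against WT (right); red is higher and blue lower at an adjusted p under 0.05, white is not called, and x axes differ. The class I genes described lie mostly left of 0 in both panels, and the constitutive 20S subunits lie close to 0.

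Few MHC class II genes could be tested. Of 11, 3 passed the filter in batch 1, with HLA-DQB1 higher (1.56, SE 0.39) and HLA-DPB1 lower (-1.45, SE 0.30) at 50 µM. In batch 2, 2 passed, and the invariant chain CD74 was lower on average in the knockouts (-2.09, SE 0.68, adjusted p = 0.0172), a call lost without WT replicate 2 or TET2KO 3 replicate 2 and with DESeq2.

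The class I genes did not all vary alike. Each of the 7 genes tested in both batches was standardised within its batch and averaged over the genes to give 1 value a library. In batch 1 the average ran from 0.94 and 0.62 in H2O to -0.78 and -0.58 at 50 µM. Across the 6 libraries of batch 1, HLA-C (Pearson's r = 0.98), TAP1 (0.98), NLRC5 (0.97) and PSMB8 (0.92) followed that average, and B2M ran against it (-0.76). Across the 8 libraries of batch 2, TAP1 (0.91) and NLRC5 (0.88) followed it most closely and TAPBP not at all (-0.02). These are descriptions over libraries that share groups and depth, and each gene is part of the average. By the smaller of the 2 correlations, the 5 of 13366 genes most like the average were LMCD1 (0.94 and 0.95), ABCC9 (0.93 and 0.93), HSPB7 (0.95 and 0.92), TPM4 (0.92 and 0.96) and PXDN (0.95 and 0.92). LMCD1, a LIM-domain protein, was at 2.45 and 2.72 CPM in H2O and 1.47 and 1.65 at 50 µM, and at 6.75 and 7.33 CPM in WT and 2.84 to 3.78 in the knockouts.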

How the data were processed

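Gene counts were deposited per library by the authors, in whole reads or fragments per gene. Per the file headers, featureCounts 1.5.3 (batch 1) and 2.0.5 (batch 2) counted exons of protein-coding GENCODE genes with no strand option. In batch 2, 77.3 to 80.5% of counts from 1 to 10 were even, against 39.0 to 42.3% in batch 1. The submitters' processing notes name Trimmomatic 0.36, STAR 2.6.1d and GRCh38. Genes, lists and tests were chosen with earlier results of these data known.

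Each batch was fitted alone with edgeR 4.0.16 (filterByExpr, minimum count 10; TMM; quasi-likelihood test; Benjamini-Hochberg over 13636 or 14061 genes; threshold 0.05), with a dispersion floor of 0.0001001 in batch 1. The standard error is the fold change over the root of F. CPM use TMM library sizes, and RPKM divide by exon length. The genes named were the 9 members, up to 3 called genes per list with the largest change at 50 µM or called alike in all 3 knockouts, and the 5 most like the members' average. Replicates differed by more than counting noise in every group (chi-square per gene 1.23 to 5.52). The test was also run on simulated data, and its outcome there is not given here. Alternatives were DESeq2 1.42.0, RLE size factors, no filter, the legacy quasi-likelihood method, a replicate block, each library left out, all 14 libraries in 1 fit, halved batch 2 counts and the knockouts as 1 group. Added after seeing the data were no dispersion floor and leaving out other genes of the MHC region. Promoters came from RefSeq (GRCh38.p14). Some items are not reported here.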

Additional observations from a re-analysis of the deposited data

Results flagged for a closer look

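By edgeR's quasi-likelihood test of a difference among TET2KO 1, 2 and 3 (adjusted p under 0.05), the effects of the labelled knockouts differed for 3 of the 7 class I genes tested and for HLA-E. Over all genes 37.6% were called in this test, a share close to that of the class I genes. For HLA-C the largest difference between 2 knockouts was 0.74 on the log2 scale (adjusted p = 0.000133), with TET2KO 1 lowest and TET2KO 2 highest. For B2M it was 0.20 (adjusted p = 6.26e-06), with TET2KO 2 lowest and TET2KO 3 highest. For PSMB8 it was 0.93 (adjusted p = 0.0148), with TET2KO 3 lowest and TET2KO 2 highest, a call lost without TET2KO 2 replicate 2 (0.132) or TET2KO 3 replicate 1 (difference 0.53, 0.222). For HLA-E it was 1.70 (adjusted p = 0.00015), with TET2KO 3 lowest and TET2KO 2 highest.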

How the results depend on the processing

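For the 8 class I genes tested in either batch, 804 values under an alternative kept their direction and side of the threshold, 51 lost their call, 5 gained one and 19 changed sign. All 19 were uncalled in the fit reported. DESeq2 called 1 class I gene at 10 µM CoCl2, 1 between the doses and 2 in TET2KO 2, against 9.29%, 35.4% and 21.9% of all genes. The fit of all 14 libraries called 1 between the doses, against 32.3%. With the knockouts as 1 group, 2 were called on average, against 1.82%. DESeq2 and the fit of all 14 libraries each called, at 50 µM, 3 class I-like genes in place of 6, 5 constitutive proteasome genes in place of 10 and 4 interferon-stimulated genes in place of 7. Over all genes these 2 fits called 42.8% and 42.2% at 50 µM, in place of 61.4%. The knockouts as 1 group left 1 loading helper called and did not give a call to HLA-E or any of the class I-like genes, proteasome genes, regulators, interferon-stimulated genes or class II genes. Replicate numbers did not pair the libraries (correlations from -0.036 to 0.0719). The fit with a replicate block called 7, 3 and 5 class I genes at 50 µM, at 10 µM and between the doses. Over all genes the shares were 60.9%, 21.8% and 52.2%. In TET2KO 1, 2, 3 and their average it called 5, 3, 4 and 5, against 15.8%, 24.9%, 17.5% and 17.5% of all genes. The same fit turned B2M in TET2KO 3 to -0.000210707. Leaving out 1 library at a time changed the number of class I genes called between the doses and in TET2KO 2. It moved the uncalled log2 fold changes from -0.016 to 0.0086 (B2M), -0.086 to 0.037 (TAP2) and -0.094 to 0.00081 (TAPBP) at 10 µM. In TET2KO 1 they ran from -0.75 to 0.42 (TAP2) and -0.050 to 0.26 (TAPBP). In TET2KO 2 they ran from -0.97 to 0.39 (TAP2), -0.26 to 0.051 (TAPBP) and -0.51 to 0.22 (HLA-E). In TET2KO 3 they ran from -0.037 to 0.039 (B2M) and -0.56 to 0.30 (TAP2), and for the average from -0.51 to 0.36 (TAP2) and -0.097 to 0.21 (TAPBP). The cause of these shifts was not tested. Depth limits TAP1, TAP2, HLA-B and PSMB9 most, at under 90 counts a library in batch 2.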
